A study of Mus musculus with 8 samples.

Results

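The autosomal differences between female and male kidneys were measured in 8 Illumina bead arrays of adult mouse kidney, 4 from females and 4 from males. The sex of each array was taken from its title, and each sex held 2 arrays of mice homozygous for the gene-trap allele Crim1KST264 (Crim1KST264/KST264, called mutant below) and 2 arrays of wildtype mice. A gene was included when it lay on an autosome and had a probe with 1 gene symbol that was detected (detection p under 0.05) on at least 2 arrays. This left 12070 of the 12476 named genes with a tested probe, after 386 genes on X or Y and 20 with another or no chromosome were set aside.

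Every array carried total RNA of kidney cells of the strain background C57B6/CD1 that had been sorted magnetically for CD31, the endothelial surface protein encoded by Pecam1. The series describes 4 pairs of wildtype and mutant adult mice of mixed sex, with no exact age and no statement of whether an array holds 1 animal or a pool. P-values therefore measure the spread between these arrays, which may be partly technical. No genotype group was left out, so each sex difference is a difference at the same mixture of both genotypes.

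The mouse kidney is one of the most sexually dimorphic organs outside the reproductive tract. Androgen acting on the proximal tubule raises and lowers the mRNA of many genes there, and most known dimorphic genes encode transporters and enzymes that oxidise, conjugate or move steroids, fatty acids, bile acids and drugs. The proximal tubule reabsorbs sugars, amino acids and phosphate through its brush border, whereas the thick ascending limb, distal convoluted tubule and collecting duct adjust salt, water and acid.

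The labels of sex were checked on the sex chromosomes, which were otherwise not used. Xist lay between 10.52 and 11.07 on the log2 scale on the female arrays and between 4.35 and 4.56 on the male arrays, and the Y-linked Eif2s3y between 4.44 and 4.60 in females and 10.61 and 11.10 in males. The sorted fraction held much tubule RNA. The median of 20 pan-endothelial markers ranked at a percentile of 91.9 to 97.2 of an array's probes, and that of 14 proximal tubule markers at 98.1 to 98.8. Crim1 itself, whose trapped allele the mutants carry, read 5.82 and 5.82 in the mutant females, 7.98 and 7.91 in the wildtype females, 4.67 and 4.88 in the mutant males and 7.66 and 6.97 in the wildtype males. It was lower in the mutants of both sexes and was itself among the autosomal genes called higher in females, at -0.84 (SE 0.17, adjusted p = 0.0453). Raw array medians ran from 83.2 to 98.5 intensity units and 45.1 to 48.7% of probes were detected. The first principal component carried 35.1% of the variance and separated the sexes, females at -37.5 to -28.6 and males at 20.2 to 44.7. The second carried 18.4%, with mutant male 2 at 53.8 and wildtype male 4 at -39.9.

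Of the 12070 autosomal genes, 423 differed between the sexes at an adjusted p under 0.05 (limma, additive genotype term), a share of 3.5%. Among all 23841 probes tested, 3.05% passed. In males 168 genes (1.39%) were higher and in females 255 (2.11%), with a median log2 difference, male minus female, of 1.02 and -0.89 respectively against -0.02 over all autosomal genes. On 418 of the 423 genes the 4 female and 4 male arrays did not overlap, whereas 13.9% of all autosomal genes had arrays that did not overlap. The genes were called on these same arrays, so the missing overlap follows largely from the call and is no added support. A difference of at least 3 on the log2 scale, 8-fold, was reached by 8 male-higher and 13 female-higher genes. The counts moved with the arrays used. Without mutant male 2 they were 324 and 286, and without mutant male 4 they were 177 and 182. Without wildtype female 1 they were 73 and 84, without wildtype male 2 78 and 94, and without wildtype female 3 94 and 130. Without mutant female 3 they were 98 and 129, without mutant female 1 104 and 151, and without wildtype male 4 110 and 121. No gene of the 423 changed its sign in any of these fits, which share most of their arrays with the full fit. Of the 97 called genes named by rule, 54 passed in all 8 fits that left out 1 array. By chromosome, the share of tested genes that were called ran from 2.2% on chromosome 12 to 5.59% on chromosome 19. At an unadjusted p under 0.05 stood 2542 autosomal genes.

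**Figure D1:**
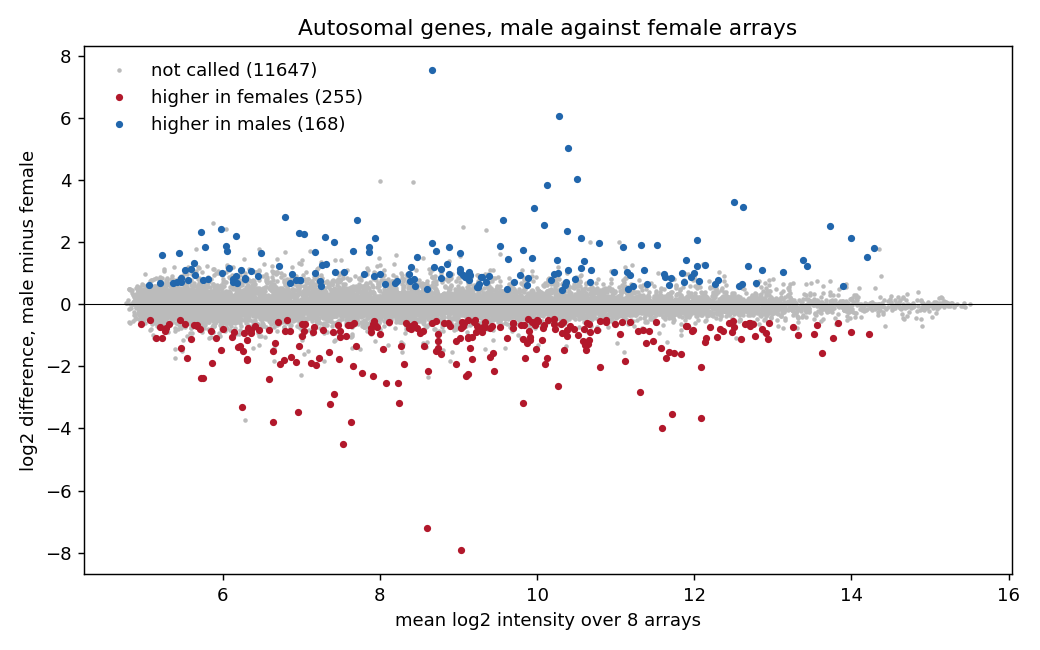
Mean log2 intensity over the 8 arrays (x axis) against the log2 difference male minus female (y axis) for each of the 12070 autosomal genes, with the 168 genes higher in males in blue, the 255 higher in females in red and all others in grey. The called genes are spread over the whole intensity range, and Cyp2j13 and Acsm3 on the upper side and Ugt1a2 and Ugt1a5 on the lower side stand farthest from 0.

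Several of the genes farthest apart between the sexes have close relatives in the same gene cluster, and the DNA just before their starts is shown here because such relatives differed either in the same or in opposite directions. The stretches come from RefSeq (mouse build GRCm38.p6), read 5′ to 3′ on the gene's strand, end at the base before the start of the gene and hold up to 250 bases. Capitals mark a match to one of the 3 motifs described below. Ugt1a5, Ugt1a2 and Ugt1a1 are first exons of one locus on chromosome 1, each with its own promoter, spliced to shared exons. All 3 were higher in females. Their stretches lie at chr1:88165762-88166011, chr1:88200361-88200610 and chr1:88211709-88211958, all on the plus strand.
Ugt1a5: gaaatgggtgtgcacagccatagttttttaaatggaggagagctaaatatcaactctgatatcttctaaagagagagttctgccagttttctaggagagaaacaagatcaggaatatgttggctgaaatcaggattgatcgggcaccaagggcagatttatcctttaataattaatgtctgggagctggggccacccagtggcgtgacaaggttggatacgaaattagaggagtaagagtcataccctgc
Ugt1a2: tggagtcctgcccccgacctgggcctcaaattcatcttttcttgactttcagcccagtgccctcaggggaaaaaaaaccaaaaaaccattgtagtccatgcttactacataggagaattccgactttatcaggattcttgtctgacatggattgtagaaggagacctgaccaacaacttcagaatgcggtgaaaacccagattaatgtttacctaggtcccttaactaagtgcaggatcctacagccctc
Ugt1a1: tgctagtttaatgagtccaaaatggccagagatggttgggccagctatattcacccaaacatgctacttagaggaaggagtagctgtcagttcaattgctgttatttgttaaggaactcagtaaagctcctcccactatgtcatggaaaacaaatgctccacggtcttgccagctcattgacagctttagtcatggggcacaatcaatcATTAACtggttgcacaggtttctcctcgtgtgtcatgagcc
In pairwise alignments, with gaps counted as mismatches, Ugt1a2 and Ugt1a5 were 48.8% identical, Ugt1a1 and Ugt1a2 50.7% and Ugt1a1 and Ugt1a5 51.0%, so that these neighbours shared a direction with little shared upstream sequence.

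Slc22a28 and Slc22a30 are organic ion transporter genes on the minus strand of chromosome 19, adjacent among the tested genes. Both were higher in males. The stretches at chr19:8131983-8132232 and chr19:8405112-8405355 had 238 of the 244 bases of Slc22a30 identical, 95.2% of the alignment.
Slc22a28: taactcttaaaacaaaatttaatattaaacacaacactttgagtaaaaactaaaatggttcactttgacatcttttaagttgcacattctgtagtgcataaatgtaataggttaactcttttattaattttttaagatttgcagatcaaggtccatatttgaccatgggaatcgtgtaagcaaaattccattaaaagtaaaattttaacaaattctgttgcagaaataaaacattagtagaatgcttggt
Slc22a30: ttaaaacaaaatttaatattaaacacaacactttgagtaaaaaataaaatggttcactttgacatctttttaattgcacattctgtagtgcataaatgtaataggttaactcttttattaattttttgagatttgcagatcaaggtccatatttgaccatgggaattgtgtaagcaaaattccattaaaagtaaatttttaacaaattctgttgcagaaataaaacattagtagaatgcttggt
Cyp2d9 and Cyp2d10, cytochrome P450 genes of one cluster on chromosome 15, went opposite ways. In their stretches 159 of the 191 bases of Cyp2d10 were identical, 62.8% of an alignment that includes the part of Cyp2d9 beyond the shorter stretch. Cyp2d9 (chr15:82452127-82452376, plus strand) was higher in males and Cyp2d10 (chr15:82407254-82407444, minus strand) in females.
Cyp2d9: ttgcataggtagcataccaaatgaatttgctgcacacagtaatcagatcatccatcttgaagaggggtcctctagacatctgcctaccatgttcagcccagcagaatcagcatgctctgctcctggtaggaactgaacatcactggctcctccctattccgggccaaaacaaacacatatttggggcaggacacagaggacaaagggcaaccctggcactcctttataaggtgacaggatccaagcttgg
Cyp2d10: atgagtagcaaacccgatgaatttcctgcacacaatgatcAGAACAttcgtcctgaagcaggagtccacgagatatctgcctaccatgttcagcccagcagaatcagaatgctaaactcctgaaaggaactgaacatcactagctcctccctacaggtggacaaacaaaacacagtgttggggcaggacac
Cyp2j13, the gene with the widest male-higher difference, is shown for reference (chr4:96077567-96077790, minus strand).
Cyp2j13: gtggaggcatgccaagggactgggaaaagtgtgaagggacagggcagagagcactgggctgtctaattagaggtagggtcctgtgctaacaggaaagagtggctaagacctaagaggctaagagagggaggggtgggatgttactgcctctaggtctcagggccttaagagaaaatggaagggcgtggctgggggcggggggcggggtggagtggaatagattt

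In 9707 of the tested autosomal genes, 341 of them called, 250 bases upstream of the first listed start were searched on both strands for 3 motifs. The hexamer AGAACA, which reads TGTTCT on the other strand and is the half-site bound by androgen and glucocorticoid receptors, was present in 11.2% of all these promoters, in 11.9% of those of male-higher genes and in 13.1% of those of female-higher genes. The palindrome TTCNNNGAA, the letters bound by STAT factors, was in 6.28%, 5.19% and 8.25%. GTTAAT, which reads ATTAAC on the other strand and is a half-site of the HNF1 factors, was in 4.26%, 4.44% and 8.25%. No motif contains another, and a match is a description of letters only. Of the promoters shown, Cyp2d10 held 1 AGAACA and Ugt1a1 1 ATTAAC, and the others held none of the 3.

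Cyp2j13, a P450 of the subfamily known for epoxidising arachidonic acid, had the widest male-higher difference. Its log2 intensity was 5.10 and 4.71 (mutant) and 5.06 and 4.69 (wildtype) in females, and 12.73 and 12.32 (mutant) and 12.44 and 12.26 (wildtype) in males. No female array detected the probe and every male array did, so the difference of 7.55 (SE 0.15, adjusted p = 3.92e-07) is given as at least 148-fold. Acsm3, a mitochondrial medium-chain acyl-CoA synthetase, read 7.09 and 7.60 in wildtype females, 7.27 and 7.04 in mutant females, 13.29 and 12.97 in wildtype males and 13.25 and 13.71 in mutant males. The sexes stood far apart with a difference of 6.05 (SE 0.19, adjusted p = 3.31e-06), and the spread within a sex was 0.25 (SD, n = 4) in females and 0.31 (SD, n = 4) in males. Cyp2d9, a steroid hydroxylase known from male mouse liver, read 7.15 and 7.90 in the mutant females, 8.07 and 8.43 in the wildtype females, 13.52 and 11.70 in the mutant males and 13.13 and 13.30 in the wildtype males. Mutant male 4 was the lowest male, still above every female, and the difference was 5.03 (SE 0.37, adjusted p = 0.000469).

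Slc22a30 and Slc22a28 shared a pattern over the arrays. Slc22a30 read 6.57 and 9.46 (mutant) and 8.00 and 9.92 (wildtype) in females, and 12.53 and 12.40 (mutant) and 12.65 and 12.49 (wildtype) in males, a difference of 4.03 (SE 0.64, adjusted p = 0.0178). Slc22a28 read 7.50 and 9.76 in wildtype females, 6.50 and 9.05 in mutant females, 12.20 and 11.99 in wildtype males and 12.19 and 11.79 in mutant males, a difference of 3.84 (SE 0.63, adjusted p = 0.0201). All males were close together and the females were not: mutant female 1 and wildtype female 1 were low and mutant female 3 and wildtype female 3 high in both genes. Cyp4a12a, an arachidonate hydroxylase induced by androgen in mouse kidney, read 11.65 and 9.32 in the mutant females, 10.40 and 12.06 in the wildtype females, 14.55 and 14.31 in the mutant males and 13.51 and 14.23 in the wildtype males, and its neighbour Cyp4a12b 8.94 and 7.99 (mutant) and 6.89 and 9.02 (wildtype) in females, and 11.15 and 11.18 (mutant) and 10.34 and 11.04 (wildtype) in males. Their differences were 3.29 (SE 0.58, adjusted p = 0.0267) and 2.71 (SE 0.44, adjusted p = 0.0197). For Cyp4a12a mutant female 3 and wildtype female 1 were the low females, and for Cyp4a12b wildtype female 1 was the lowest. The probe sequences are not given in the files used here, so whether probes of such close relatives each report 1 gene was not tested. All 4 genes lost their call in at least 1 fit that left out an array, with an adjusted p of up to 0.0687 for Slc22a30, 0.0704 for Slc22a28, 0.0953 for Cyp4a12a and 0.0629 for Cyp4a12b.

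The other male-higher genes among the 12 with the widest differences were tighter. Ces1f, a carboxylesterase, lay at 10.89 to 11.33 in females and 14.13 to 14.32 in males and differed by 3.12 (SE 0.13, adjusted p = 1.39e-05). Ugt2b36, a glucuronosyltransferase, lay at 8.10 to 8.83 in females and 11.45 to 11.56 in males and differed by 3.09 (SE 0.14, adjusted p = 3.16e-05). Fmo5, a flavin monooxygenase, and Ugt8a, which transfers galactose to ceramide, differed by 2.72 (SE 0.28, adjusted p = 0.00239) and 2.56 (SE 0.13, adjusted p = 4.81e-05). Kif20b, a kinesin of cell division and the one gene of the 12 that is no metabolic enzyme or transporter, differed by 2.81 (SE 0.22, adjusted p = 0.000795), from 5.04 to 5.61 in females and 7.59 to 8.66 in males.

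Ugt1a2 had the widest fitted difference in either direction. It read 12.90 and 12.61 in wildtype females, 13.28 and 13.18 in mutant females, 5.38 and 4.66 in wildtype males and 5.41 and 4.84 in mutant males, a difference of -7.92 (SE 0.20, adjusted p = 9.48e-07), and its probe was detected on every female array and on 2 male arrays. Ugt1a5 read 12.26 and 12.44 in the mutant females, 12.15 and 11.95 in the wildtype females, 4.42 and 5.02 in the mutant males and 5.66 and 4.86 in the wildtype males, a difference of -7.21 (SE 0.25, adjusted p = 6.49e-06), with detection on 1 male array. The male levels of both genes lay near or below the detection limits of the arrays, 5.16 to 5.37, so the size of these 2 differences is not exact. Ugt1a1, the enzyme that conjugates bilirubin, was detected on no male array, and its levels of 7.56 to 8.24 in females and 4.45 to 4.77 in males give at least 6.23-fold (difference -3.30 (SE 0.12, adjusted p = 6.59e-06)). In all 3 genes the gap between the sexes exceeded the range within either sex.

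Slc7a12, an amino acid transporter, read 8.74 and 10.11 (mutant) and 10.46 and 9.81 (wildtype) in females, and 5.35 and 5.47 (mutant) and 4.67 and 5.69 (wildtype) in males. Wildtype male 2 and mutant female 1 were the lowest of their sex, and the difference was -4.49 (SE 0.37, adjusted p = 0.000989). Gsta2 and Gsta1, alpha-class glutathione S-transferases, lay at 13.37 to 13.79 in females and 8.65 to 10.56 in males and 13.37 to 13.66 in females and 9.06 to 10.99 in males and differed by -3.98 (SE 0.37, adjusted p = 0.00155) and -3.54 (SE 0.38, adjusted p = 0.00319). In both genes the females were tight and the males spread over more than 1 log2 unit, with wildtype male 4 lowest and wildtype male 2 highest. Cyp4a14, a fatty acid hydroxylase, read 13.41 and 13.84 in wildtype females, 14.07 and 14.35 in mutant females, 11.39 and 9.75 in wildtype males and 9.07 and 10.80 in mutant males and differed by -3.67 (SE 0.49, adjusted p = 0.00834), the males again spread wider than the females.

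Baat, which joins bile acids to taurine or glycine, differed by -3.78 (SE 0.15, adjusted p = 1.03e-05) and lay at 9.11 to 9.97 in females and 5.13 to 6.29 in males. Bhmt, which remethylates homocysteine with betaine, differed by -3.48 (SE 0.34, adjusted p = 0.00199). Kynu, kynureninase of tryptophan breakdown, differed by -3.19 (SE 0.27, adjusted p = 0.00116). Atp13a4, a P5-type ATPase, was detected on no male array and was at least 9.67-fold higher in females (difference -3.80 (SE 0.24, adjusted p = 0.000213)). Spink6, a protease inhibitor, read 8.70 and 9.11 in the mutant females, 9.12 and 8.98 in the wildtype females, 4.65 and 4.40 in the mutant males and 6.60 and 7.40 in the wildtype males. Its 2 mutant males were near the lower end of the scale and the 2 wildtype males between them and the females, and the difference over both genotypes was -3.21 (SE 0.45, adjusted p = 0.0106). Of the 24 genes with the widest differences, 20 passed the threshold in every fit that left out 1 array and under every other setting.

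**Figure D2:**
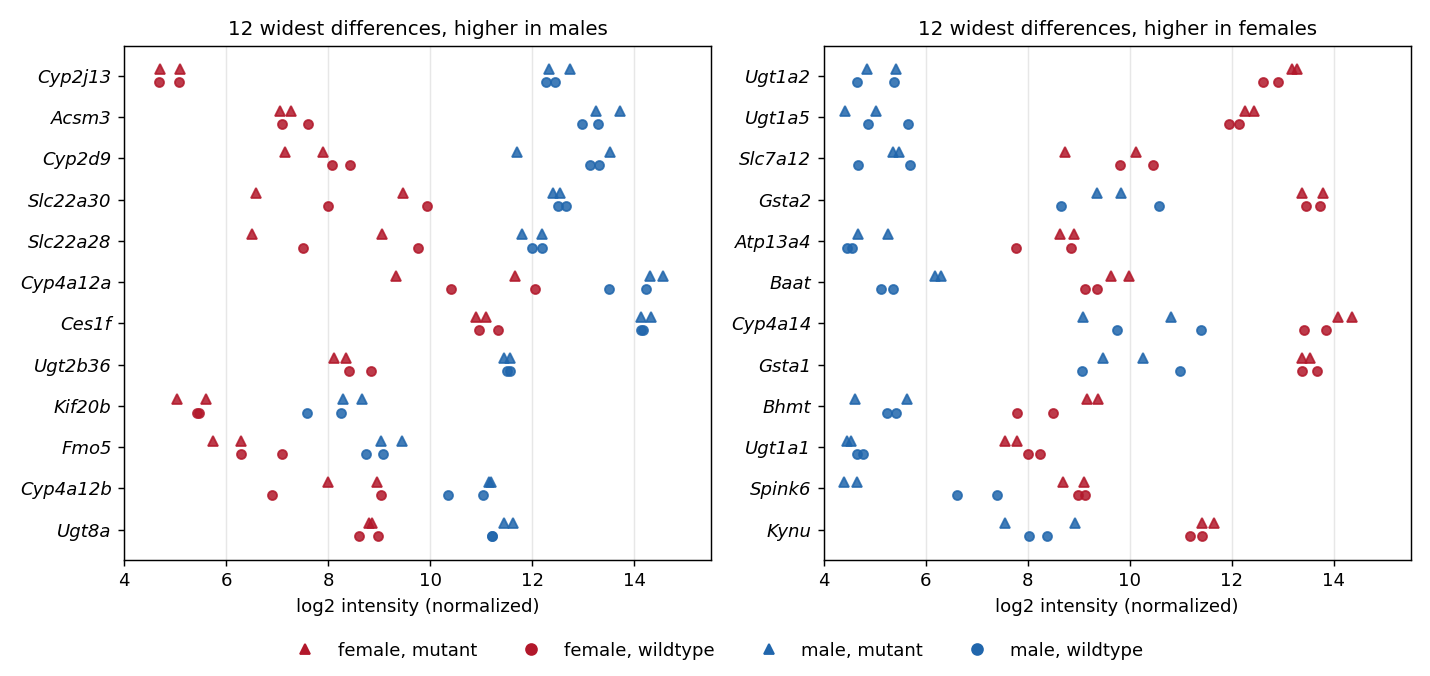
Normalized log2 intensity (x axis) of the 12 genes with the widest differences in each direction, 1 point per array, females in red and males in blue, triangles for mutants and circles for wildtypes. The genes were chosen among those in which females and males do not overlap. Within a sex the widest scatter is in the females for Slc22a30, Slc22a28 and Cyp4a12a and in the males for Spink6 and Cyp4a14.

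The proximal tubule carries most of the transporters, and its 5 lists held 99 tested genes. Of these, 5 were higher in males and 12 in females (17.2%, against 3.5% of all autosomal genes). The median log2 difference of the 99 genes was -0.22, with 72 below 0. Proximal tubule markers were read by sex as well. The mean log2 intensity of 14 such markers was 13.24 to 13.41 in females and 12.80 to 13.16 in males. Their summed linear intensity overlapped, at 207367 to 228600 in females and 196806 to 225360 in males. Of the 14 markers 5 lay above 0. The mean includes 3 markers called higher in females (Gatm, Slc5a12 and Slc13a3) and 1 in males (Slc22a6). The part of the proximal tubule RNA level in these results was not tested. In RNA of a whole sorted fraction, fewer cells of a type and less RNA per cell cannot be told apart.

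Among 15 tested sugar transporters and their SLC5 relatives, 2 were higher in females (13.3%, against 3.5% of all autosomal genes called) and none in males. Their median was -0.37. Slc5a12, a sodium-coupled lactate transporter, read 13.46 and 13.16 (mutant) and 13.67 and 13.68 (wildtype) in females, and 12.41 and 12.76 (mutant) and 12.26 and 12.08 (wildtype) in males and differed by -1.11 (SE 0.19, adjusted p = 0.0224). Slc5a9, a mannose and fructose transporter, lay at 9.56 to 9.75 in females and 8.61 to 9.21 in males and differed by -0.79 (SE 0.14, adjusted p = 0.025). Neither gene overlapped between the sexes, as was so for 418 of the 423 called genes and 13.9% of all autosomal genes.

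In the 27 tested amino acid and peptide transporters, 4 were higher in females and 1 in males (18.5% called, against 3.5% of all autosomal genes). Besides Slc7a12, the female-higher genes were Slc7a8, a basolateral exchanger of neutral amino acids, at -1.26 (SE 0.18, adjusted p = 0.0109), Slc6a19, the sodium-coupled neutral amino acid transporter of the brush border, at -1.01 (SE 0.13, adjusted p = 0.00615), and Slc7a9, the light chain of the cystine transporter, at -0.93 (SE 0.13, adjusted p = 0.00994). Slc6a19 lay at 12.99 to 13.48 in females and 12.17 to 12.36 in males, a narrow band in each sex. Slc7a13, a transporter of the straight proximal tubule, was the male-higher one at 0.71 (SE 0.14, adjusted p = 0.0419). It was close to the detection limit, with detection on 1 female array and all 4 male arrays. It passed in 1 of the 8 fits that left out 1 array.

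The 20 tested transporters of phosphate, sulphate, urate and carboxylates held a pair of relatives that went opposite ways. Slc17a2 and Slc17a3, organic anion and urate transporters both on chromosome 13, differed by -2.37 (SE 0.21, adjusted p = 0.0013) and 1.43 (SE 0.16, adjusted p = 0.00365). Slc17a2 read 7.41 and 6.51 in wildtype females, 6.69 and 7.00 in mutant females, 4.32 and 4.78 in wildtype males and 4.59 and 4.45 in mutant males and no male array detected it, which gives at least 3.12-fold. Slc17a3 lay at 10.93 to 11.30 in females and 12.38 to 12.90 in males. Slc16a4, a monocarboxylate transporter relative, and Slc13a3, the basolateral dicarboxylate transporter, were higher in females by -0.84 (SE 0.15, adjusted p = 0.0276) and -0.53 (SE 0.11, adjusted p = 0.0478), and 1 of the other probes of Slc13a3 had the opposite sign. Of 14 tested proximal genes for sodium, proton, bicarbonate and water, 1 was called (7.14%, against 3.5% of all autosomal genes). It was the membrane carbonic anhydrase Car14, at -0.64 (SE 0.13, adjusted p = 0.0432), which passed in none of the 8 fits that left out 1 array (adjusted p 0.0533 to 0.124).

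The list of brush-border peptidases and endocytic receptors also held other genes, such as Cndp2, Tmigd1, Gusb and Kap. Of its 23 tested genes, 3 were higher in males and 2 in females (21.7% called, against 3.5% of all autosomal genes). Cndp2, a dipeptidase, read 7.46 and 7.89 in the mutant females, 7.74 and 7.63 in the wildtype females, 10.03 and 9.89 in the mutant males and 9.57 and 9.07 in the wildtype males, a difference of 1.96 (SE 0.19, adjusted p = 0.00198). Tmigd1, an adhesion molecule of the proximal tubule, and Treh, trehalase of the brush border, were also higher in males at 1.30 (SE 0.24, adjusted p = 0.0321) and 1.00 (SE 0.12, adjusted p = 0.00496). Alkaline phosphatase, Alpl, and neprilysin, Mme, were higher in females at -0.83 (SE 0.12, adjusted p = 0.0128) and -0.82 (SE 0.15, adjusted p = 0.0319). Treh lay at 11.18 to 11.59 in females and 12.26 to 12.42 in males. Alpl lay at 12.22 to 12.64 in females and 11.47 to 11.70 in males. Neither gene overlapped, as was so for 418 of the 423 called genes and 13.9% of all autosomal genes.

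No gene passed in the lists for segments downstream of the proximal tubule. Called genes outside the lists were not placed by segment. The lists of the thick ascending limb (15 genes tested), distal convoluted and connecting tubule (17), principal cells (16) and intercalated cells (14) held 62 tested genes with 0 called by limma, against 3.5% of all autosomal genes, and 10 had an unadjusted p under 0.05. The differences ran from -0.68 to 0.54 with a median of -0.20, and 57 of the 62 were below 0. The smallest p-values belonged to Slc9a2, a sodium/proton exchanger, at -0.68 (SE 0.15, adjusted p = 0.0594), and Slc4a9, an anion exchanger of intercalated cells, at -0.63 (SE 0.15, adjusted p = 0.0733). Sgk1, the aldosterone-induced kinase, was the one farthest above 0, at 0.54 (SE 0.16, adjusted p = 0.123). The subunits of the epithelial sodium channel Scnn1g and Scnn1b stood at -0.40 (SE 0.18, adjusted p = 0.277) and -0.35 (SE 0.17, adjusted p = 0.294). At a share of 3.5% few calls are expected among 62 genes, and a p that misses the threshold does not show equal levels.

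**Figure D3:**
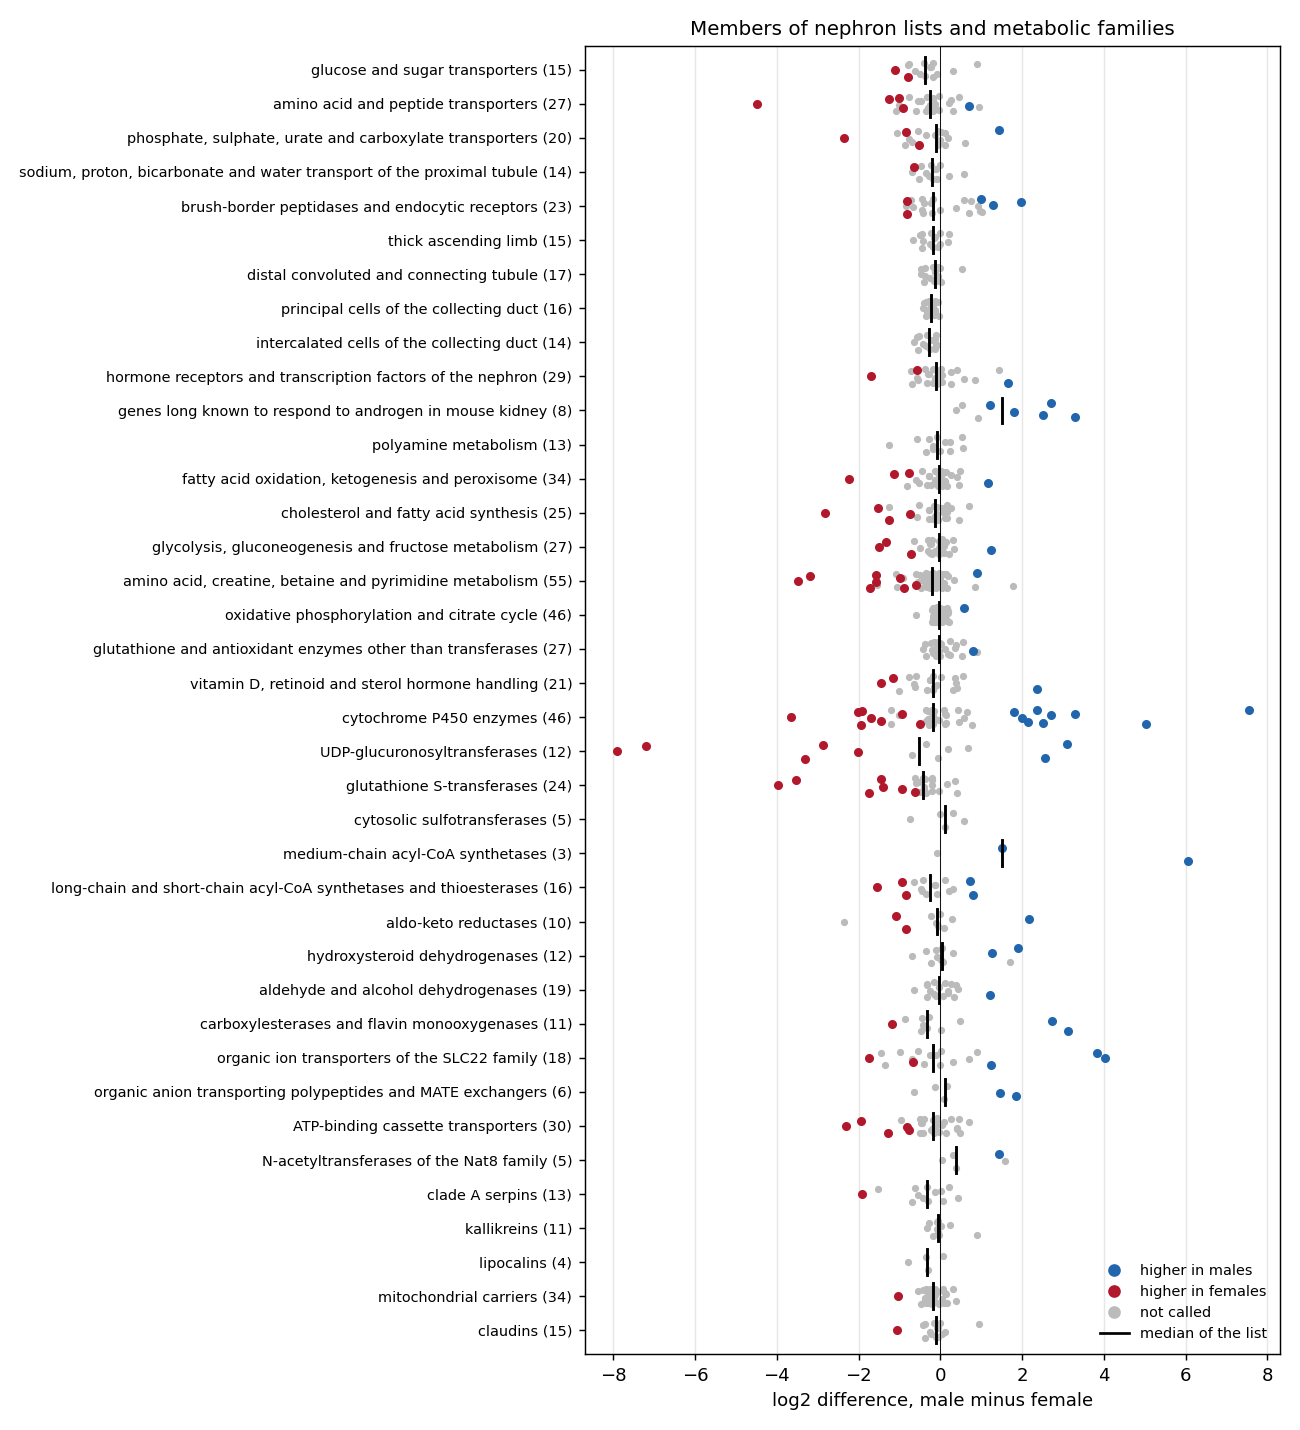
Log2 difference male minus female (x axis) of every tested member of each nephron list and metabolic family (rows, with the number tested in brackets), blue for genes higher in males, red for genes higher in females, grey for genes not called, and a black bar for the median of the list. The distal rows hold grey points only between -0.68 and 0.54, and the highest point is Cyp2j13 in the P450 row and the lowest Ugt1a2 in the glucuronosyltransferase row.

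Among 29 tested hormone receptors and transcription factors of the nephron, 3 were called (10.3%, against 3.5% of all autosomal genes). Nr1i2, the pregnane X receptor that senses drugs and bile acids, read 7.69 and 8.21 (mutant) and 7.35 and 7.60 (wildtype) in females, and 5.93 and 6.28 (mutant) and 6.11 and 5.75 (wildtype) in males, a difference of -1.69 (SE 0.17, adjusted p = 0.00224). The insulin receptor Insr was higher in females by a smaller amount, -0.57 (SE 0.11, adjusted p = 0.0361), and passed in none of the 8 fits that left out 1 array, where its adjusted p was 0.0580 to 0.101. Fkbp5, a co-chaperone induced by steroid hormone receptors, was higher in males, 7.90 to 8.61 in females and 9.59 to 10.22 in males, with a difference of 1.66 (SE 0.16, adjusted p = 0.00164).

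Genes long known to respond to androgen in mouse kidney form a list that was made from knowledge of this very sex difference. All 8 tested members lay above 0 with a median of 1.51, and 5 passed. Cyp4b1, a P450 of fatty acids and small aromatics, lay at 12.30 to 12.73 in females and 14.81 to 15.24 in males and differed by 2.51 (SE 0.14, adjusted p = 0.00011). Cyp2e1, the ethanol-oxidising P450, and Adh1, alcohol dehydrogenase, differed by 1.81 (SE 0.20, adjusted p = 0.0035) and 1.22 (SE 0.14, adjusted p = 0.00375), and the other 2 were Cyp4a12a and Cyp4a12b. Kap, the kidney androgen-regulated protein, read 14.39 and 14.24 in wildtype females, 12.77 and 14.26 in mutant females, 14.91 and 14.76 in wildtype males and 14.96 and 14.69 in mutant males, a difference of 0.91 (SE 0.32, adjusted p = 0.168) that did not pass. Its female values split, with mutant female 1 the lowest by more than 1 log2 unit. Odc1, ornithine decarboxylase of polyamine synthesis, and Gusb, beta-glucuronidase, did not pass either, at 0.54 (SE 0.19, adjusted p = 0.185) and 0.38 (SE 0.12, adjusted p = 0.154). None of the 13 tested genes of polyamine metabolism was called, against 3.5% of all autosomal genes, and 4 had an unadjusted p under 0.05.

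The families of drug and steroid metabolism and transport held sex differences in both directions. Their 193 tested genes included 22 higher in males and 30 higher in females, 26.9%, against 3.5% of all autosomal genes. The share differed by family, from none of the sulfotransferases to 58.3% of the Ugt family. Cytochrome P450 genes went both ways, 9 higher in males and 8 in females of 46 tested. The male-higher ones were, after Cyp2j13, Cyp2d9, the Cyp4a12 pair, Cyp4b1 and Cyp2e1, the oxysterol hydroxylase Cyp7b1 at 2.36 (SE 0.16, adjusted p = 0.000322), Cyp4b1-ps2, a copy of Cyp4b1, at 2.13 (SE 0.11, adjusted p = 7.07e-05), and the steroid hydroxylase Cyp2a4 at 1.99 (SE 0.38, adjusted p = 0.0345). Cyp7b1 lay at 9.07 to 9.38 in females and 11.18 to 11.89 in males.

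The female-higher P450 genes included members of the Cyp2d and Cyp4a subfamilies, which also held male-higher genes. Besides Cyp4a14 they were Cyp2d26 at -2.01 (SE 0.38, adjusted p = 0.0337), Cyp4f14, a leukotriene and fatty acid hydroxylase, at -1.94 (SE 0.22, adjusted p = 0.00423), the arachidonate epoxygenase Cyp2c23 at -1.91 (SE 0.31, adjusted p = 0.0199), Cyp2d10 at -1.70 (SE 0.34, adjusted p = 0.0413), Cyp2d12 at -1.46 (SE 0.27, adjusted p = 0.0306), Cyp4a31 at -0.93 (SE 0.19, adjusted p = 0.0413) and Cyp2s1 at -0.51 (SE 0.11, adjusted p = 0.0465). In the Cyp2d cluster of chromosome 15, Cyp2d9 was thus higher in males and 3 genes in females. In the Cyp4a cluster of chromosome 4, Cyp4a12a and Cyp4a12b were higher in males and Cyp4a14 and Cyp4a31 in females. Cyp2d26 read 12.65 and 13.11 in the mutant females, 12.98 and 13.63 in the wildtype females, 11.63 and 11.92 in the mutant males and 10.70 and 10.08 in the wildtype males, the wildtype males lower than the mutant males.

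Of 12 tested genes of the Ugt family, 2 were higher in males (Ugt2b36 and Ugt8a) and 5 in females (58.3% called, against 3.5% of all autosomal genes). The family is named for enzymes that attach glucuronic acid to steroids, bilirubin and drugs, whereas Ugt8a transfers galactose, as given above. The 2 female-higher genes not yet described were Ugt2b34 at -2.87 (SE 0.32, adjusted p = 0.0037) and Ugt1a6a at -2.03 (SE 0.13, adjusted p = 0.000217), and 1 of the other probes of Ugt1a6a had the opposite sign. Ugt2b34 and Ugt2b36, relatives on chromosome 5, went opposite ways. Ugt2b34 lay at 8.77 to 9.01 in females and 5.13 to 7.03 in males.

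Glutathione S-transferases join glutathione to reactive compounds. None of 24 tested was higher in males and 7 were higher in females (29.2%, against 3.5% of all autosomal genes called). The median was -0.42, with 3 of 24 above 0. After Gsta2 and Gsta1 came Gsta4 at -1.75 (SE 0.26, adjusted p = 0.0136), Gstm7 at -1.45 (SE 0.28, adjusted p = 0.0344), Gsto1 at -1.41 (SE 0.11, adjusted p = 0.000854), Gsta3 at -0.95 (SE 0.11, adjusted p = 0.00384) and the microsomal Mgst3 at -0.61 (SE 0.12, adjusted p = 0.0421). Gsto1 lay at 12.13 to 12.43 in females and 10.77 to 11.12 in males, and Gsta3 at 13.87 to 14.07 in females and 12.79 to 13.25 in males. Gsta4, Gsta1 and Gsta2 are adjacent among the tested genes of chromosome 9 and form one of the 2 runs of 3 neighbours called in the same direction. The other run is Ugt1a6a, Ugt1a5 and Ugt1a2. The 5 tested sulfotransferases held no call, 2 of them with an unadjusted p under 0.05, and Sult1c2 came closest at -0.75 (SE 0.16, adjusted p = 0.0507).

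Steroid-handling reductases and dehydrogenases held calls in both directions. Akr1c14, an aldo-keto reductase acting on steroids, read 5.68 and 6.44 (mutant) and 6.38 and 6.37 (wildtype) in females, and 8.19 and 8.57 (mutant) and 8.62 and 8.15 (wildtype) in males, a difference of 2.17 (SE 0.20, adjusted p = 0.00155), while its cluster neighbours Akr1c12 and Akr1c19 were higher in females at -1.09 (SE 0.17, adjusted p = 0.0166) and -0.85 (SE 0.18, adjusted p = 0.0477). Hsd11b1, which regenerates active glucocorticoid, and Hsd17b11 were higher in males at 1.90 (SE 0.31, adjusted p = 0.0198) and 1.26 (SE 0.14, adjusted p = 0.00384), 2 of 12 tested hydroxysteroid dehydrogenases. Mutant male 4 was the highest array for Hsd11b1, which lay at 10.14 to 10.56 in females and 11.74 to 13.19 in males. Of 11 carboxylesterases and flavin monooxygenases, Ces1f and Fmo5 were higher in males and Ces2g in females at -1.18 (SE 0.21, adjusted p = 0.0267). Among 19 aldehyde and alcohol dehydrogenases, Adh1 was the one call (5.26%, against 3.5% of all autosomal genes).

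Of 18 tested SLC22 organic ion transporters, 3 were higher in males and 2 in females (27.8% called, against 3.5% of all autosomal genes). The basolateral organic anion transporters of the proximal tubule took opposite directions. Slc22a6, known as Oat1, read 12.52 and 12.67 in wildtype females, 12.86 and 13.21 in mutant females, 14.06 and 13.85 in wildtype males and 14.36 and 13.91 in mutant males, a difference of 1.23 (SE 0.15, adjusted p = 0.00531). Slc22a8, known as Oat3, read 9.48 and 10.45 in the mutant females, 10.01 and 10.25 in the wildtype females, 9.01 and 7.55 in the mutant males and 8.69 and 7.93 in the wildtype males, a difference of -1.75 (SE 0.35, adjusted p = 0.0413). Neither gene overlapped between the sexes, as was so for 418 of the 423 called genes and 13.9% of all autosomal genes. Of the 8 fits that left out 1 array, Slc22a6 passed in 8 and Slc22a8 in 1. Slc22a17, a lipocalin receptor, was higher in females at -0.66 (SE 0.14, adjusted p = 0.0439) and also passed in 1 of these fits.

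Organic anion transporting polypeptides and MATE exchangers held 2 male-higher genes of 6 (33.3%, against 3.5% of all autosomal genes called). These were Slco1a4 at 1.84 (SE 0.16, adjusted p = 0.00126) and Slco3a1 at 1.46 (SE 0.13, adjusted p = 0.0013). Slco1a4 was detected on 1 female array and on every male array. Of 30 tested ATP-binding cassette transporters, 5 were higher in females and 0 in males (16.7% called, against 3.5% of all autosomal genes). Abcb1b, a P-glycoprotein that exports drugs, read 10.70 and 10.43 (mutant) and 10.23 and 9.61 (wildtype) in females, and 8.76 and 6.97 (mutant) and 7.84 and 8.20 (wildtype) in males, a difference of -2.30 (SE 0.38, adjusted p = 0.0211). The multidrug resistance proteins Abcc3 and Abcc4, which export conjugates, differed by -1.95 (SE 0.19, adjusted p = 0.00205) and -1.27 (SE 0.18, adjusted p = 0.0118). Abca4 and Abcd4 were smaller at -0.81 (SE 0.10, adjusted p = 0.00669) and -0.77 (SE 0.12, adjusted p = 0.0189), and 1 of the other probes of Abca4 had the opposite sign.

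Medium-chain acyl-CoA synthetases were male-higher in 2 of 3 tested genes (66.7%, against 3.5% of all autosomal genes called). Acsm2 lay at 8.85 to 9.57 in females and 10.46 to 10.84 in males and differed by 1.50 (SE 0.17, adjusted p = 0.00365), less than Acsm3. Of 16 long-chain and short-chain acyl-CoA synthetases and thioesterases, Acot12 and Acot10 were higher in males at 0.79 (SE 0.16, adjusted p = 0.0425) and 0.73 (SE 0.11, adjusted p = 0.0141). The peroxisomal thioesterase Acot3, the acetyl-CoA synthetase Acss1 and Acot7 were higher in females at -1.55 (SE 0.25, adjusted p = 0.0189), -0.94 (SE 0.14, adjusted p = 0.0141) and -0.85 (SE 0.16, adjusted p = 0.0366).

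In fatty acid oxidation 1 gene was higher in males and 3 in females of 34 tested (11.8%, against 3.5% of all autosomal genes), with a median of -0.04. Hacl1, a peroxisomal lyase of phytanic acid breakdown, read 10.12 and 9.98 in wildtype females, 10.35 and 10.52 in mutant females, 8.26 and 7.64 in wildtype males and 8.42 and 7.71 in mutant males, a difference of -2.24 (SE 0.20, adjusted p = 0.0013). Acaa2, the mitochondrial thiolase, and Decr2, a peroxisomal reductase, were higher in females at -1.13 (SE 0.16, adjusted p = 0.0107) and -0.77 (SE 0.15, adjusted p = 0.0383), and the peroxisomal oxidase Acox3 was higher in males at 1.17 (SE 0.12, adjusted p = 0.00281). Lipid synthesis had 4 female-higher genes and no male-higher gene of 25 (16% called). Scd1, stearoyl-CoA desaturase, read 12.14 and 13.09 in the mutant females, 13.32 and 12.35 in the wildtype females, 10.48 and 9.56 in the mutant males and 10.10 and 9.48 in the wildtype males, a difference of -2.82 (SE 0.33, adjusted p = 0.00448). The elongases Elovl2 and Elovl6 and the desaturase Fads1 differed by -1.53 (SE 0.20, adjusted p = 0.00709), -1.26 (SE 0.19, adjusted p = 0.0154) and -0.73 (SE 0.14, adjusted p = 0.0335).

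In glycolysis, gluconeogenesis and fructose metabolism, 3 of 27 were higher in females (11.1%, against 2.11% of all autosomal genes). They were the liver-type pyruvate kinase Pklr at -1.50 (SE 0.17, adjusted p = 0.00384), the fructose bisphosphatase Fbp2 at -1.32 (SE 0.21, adjusted p = 0.018) and Pck1, the gatekeeper of gluconeogenesis, at -0.71 (SE 0.14, adjusted p = 0.0419). Pck1 passed in none of the 8 fits that left out 1 array (adjusted p 0.0565 to 0.108). Ldhd, which oxidises D-lactate, was higher in males, 11.21 to 11.62 in females and 12.57 to 12.92 in males, with a difference of 1.25 (SE 0.14, adjusted p = 0.00375).

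Amino acid, creatine, betaine and pyrimidine metabolism leaned to females, with 8 of 55 higher in females, 1 in males and a median of -0.20. The share called was 16.4%, against 3.5% of all autosomal genes. Besides Bhmt and Kynu, the female-higher genes were Gatm, the first enzyme of creatine synthesis, at -1.71 (SE 0.24, adjusted p = 0.00994), Ddc, which makes dopamine in the proximal tubule, at -1.59 (SE 0.23, adjusted p = 0.0124), Prodh2 of hydroxyproline breakdown at -1.58 (SE 0.12, adjusted p = 0.000682), the alanine aminotransferase Gpt2 at -0.99 (SE 0.17, adjusted p = 0.0224), ornithine aminotransferase Oat at -0.89 (SE 0.10, adjusted p = 0.00443) and cystathionase Cth at -0.59 (SE 0.12, adjusted p = 0.038). Gatm read 10.71 and 10.39 (mutant) and 11.62 and 11.22 (wildtype) in females, and 9.50 and 9.09 (mutant) and 9.50 and 8.98 (wildtype) in males. The cytosolic alanine aminotransferase Gpt went the other way to Gpt2, at 0.89 (SE 0.17, adjusted p = 0.032). Gpt passed in 1 of the 8 fits that left out 1 array.

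Of 46 genes of oxidative phosphorylation and the citrate cycle 1 was called, Cycs, somatic cytochrome c, at 0.58 (SE 0.10, adjusted p = 0.0226), a share of 2.17%. Of 27 antioxidant genes other than the transferases 1 was called, Selenop, the selenium carrier protein, at 0.80 (SE 0.16, adjusted p = 0.0419), a share of 3.7%. Both shares were near the 3.5% of all autosomal genes. In vitamin D, retinoid and sterol hormone handling, Stra6, the retinol uptake receptor, and Rdh16, a retinol dehydrogenase, were higher in females at -1.46 (SE 0.25, adjusted p = 0.026) and -1.15 (SE 0.15, adjusted p = 0.00756), and Cyp7b1 in males.

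Nat8, an acetyltransferase of mercapturic acid formation, was higher in males at 1.44 (SE 0.14, adjusted p = 0.00197), 1 of 5 tested in its family. Serpina1f of the clade A serpins, the mitochondrial carrier Slc25a36 and the tight junction gene Cldn1 were higher in females at -1.93 (SE 0.29, adjusted p = 0.0148), -1.03 (SE 0.14, adjusted p = 0.00864) and -1.06 (SE 0.15, adjusted p = 0.0109). Each was the one call of 13, 34 and 15 tested (7.69%, 2.94% and 6.67%, against 3.5% of all autosomal genes). A single call in a list of this size says little about the family. None of 11 kallikreins and 4 lipocalins was called, and 1 of each had an unadjusted p under 0.05. All nephron and metabolic lists together held 713 tested genes with 38 male-higher and 70 female-higher calls (15.1%, against 3.5% of all autosomal genes). Another 315 called genes were in no list. Each of these lists was drawn up with earlier results of the arrays known.

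The sex difference was also read within each genotype, 2 arrays against 2, from a fit with a mean for each of the 4 groups. All 423 genes had the same sign in mutants and in wildtypes. They were chosen by their difference over both genotypes on these same arrays, so a shared sign follows largely from the choice. Within mutants 0.63% of autosomal genes passed and within wildtypes 1.28%. Of the 423, 69 were called within mutants, 123 within wildtypes and 59 within both. The difference was larger in the wildtypes for 243 of them. A test of the difference between the genotypes (interaction) passed in 0% of autosomal genes, with a smallest adjusted p of 0.594 and 820 genes at an unadjusted p under 0.05. The smallest interaction p-values belonged to Cfi, complement factor I, which was 9.78 and 9.48 in wildtype females, 8.93 and 8.93 in mutant females, 7.21 and 7.22 in wildtype males and 8.42 and 8.78 in mutant males, and to Bambi-ps1, Mtmr4, Pf4 and Ccl6, none of them called for sex.

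**Figure D4:**
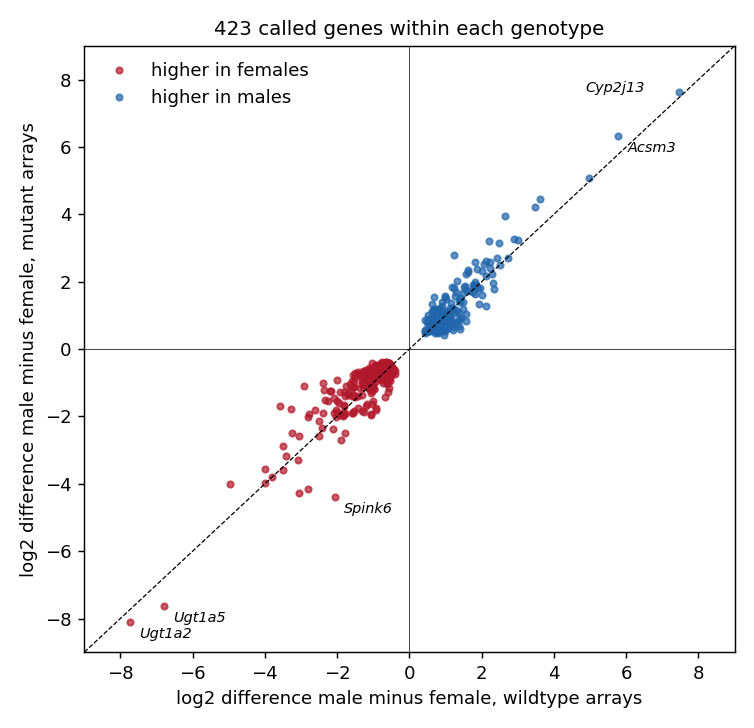
Log2 difference male minus female in wildtype arrays (x axis) against that in mutant arrays (y axis) for the 423 called genes, red for genes higher in females and blue for genes higher in males, with the line of equal difference dashed. All points lie in the lower left and upper right quadrants, which the choice of genes by their difference over both genotypes favours. Spink6 is among those farthest from the line.

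Markers of other cells were read beside these results. Of 141 tested marker genes 4 were called (2.84%, near the 3.5% of all autosomal genes), the proximal tubule genes named above. Called genes outside the marker lists, among them the leukocyte genes Ptprc, Cd48 and Fcgr3, are not in this count. The 20 pan-endothelial markers held no call, with 8 at an unadjusted p under 0.05. Of these 20, 19 lay above 0, with a median of 0.59. Their mean log2 intensity was 10.65 to 11.01 in females, 10.50 in mutant male 2 and 11.41, 11.65 and 12.01 in the other males. T and NK cell markers had a median of 0.96 (7 of 8 above 0) and macrophage and dendritic cell markers 0.37 (9 of 9 above 0). Neither list held a call, with 6 and 1 members at an unadjusted p under 0.05. Thick limb markers had a median of -0.14 and genes induced by tissue dissociation -0.20. The endothelial level moved with sex in 3 of 4 males, and its part in the differences above was not tested. Besides the lowest endothelial level, mutant male 2 had the lowest raw median (83.2) and the lowest share of probes detected (45.1%), and stood at 53.8 on the second principal component. Without this array 324 genes were higher in males and 286 in females, as given above, and the cause was not tested.

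**Figure D5:**
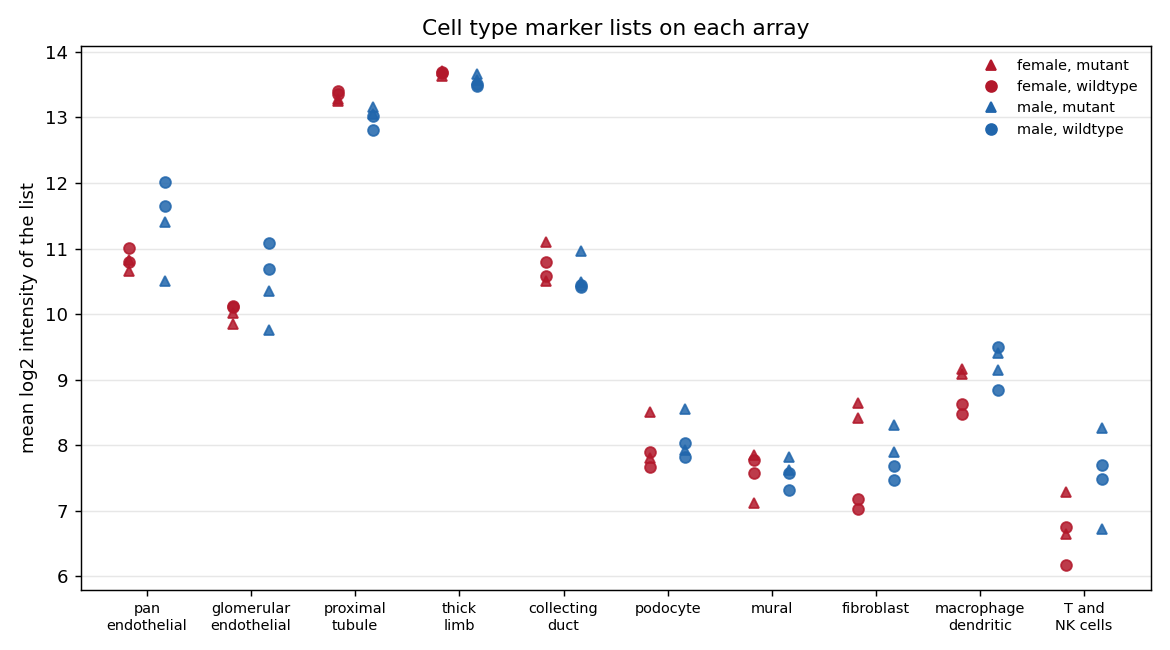
Mean log2 intensity (y axis) of 10 cell type marker lists (x axis) on each array, females in red, males in blue, triangles for mutants and circles for wildtypes. The mean of the pan-endothelial markers is higher in 3 males than in any female and lowest in mutant male 2. The mean of the proximal tubule markers is lower in every male than in every female. Of these 14 proximal tubule markers 4 are themselves called for sex.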

How the data were processed

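The deposited table holds a linear signal intensity and a detection p-value for each probe and array, per the file headers, described there as non-normalized. No step between scanner and table is stated. A second deposited table holds the authors' processed values on a log2-like scale whose transformation is not given, used as an alternative. Labelled cRNA was made with the Ambion MessageAmp kit, per the labels' protocols. All 8 arrays were background-corrected with normexp on the detection p-values, given an offset of 16, brought to common quantiles and log2-transformed with the function neqc of limma 3.58.1 (R 4.3.3). Of 45281 probes 23841 were detected on at least 2 arrays. Probes were named from the platform annotation, 34885 with 1 symbol, 18 with several and 10378 with none, and a gene was read from its brightest tested probe. Of the 423 called genes, 173 had over 1 tested probe and 18 had a probe of the opposite sign.

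Each probe was fitted with sex and genotype as additive terms (lmFit and eBayes, two-sided), and p-values were adjusted by Benjamini-Hochberg over all 23841 probes. Fold bounds ("at least") set the brighter sex's mean against the detection limit of each array where no array of the dimmer sex detected the probe. The genes named were the 12 called genes with the widest non-overlapping difference in each direction, up to 4 per direction in each list, and the 2 with the smallest p where no member was called, and 5 by interaction p, and called P450, glutathione S-transferase and other family members beyond these were named after their values were seen, as were the androgen genes that did not pass. The genes, lists and motifs were chosen with earlier results of these data known, and the upstream stretches and motifs after the results. The fit was tested on simulated data before use. Figures were drawn with matplotlib 3.10.9 and alignments made with Biopython 1.88. No slide or scan is named in the labels or the headers used here, so no such batch could be tested. Precision is limited by the 4 arrays in each sex.

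Sample numbers in the titles lie within a sex, 1 and 3 in females and 2 and 4 in males, so they cannot be a fixed block of the sex comparison. Mutant and wildtype arrays of the same number deviated from their group means with r = 0.100 in females and 0.269 in males, each a single independent value because 2 numbers mirror one another, and the pairing was fitted as a random replicate block, whose fitted correlation over all probes was -0.0387, with 183 genes higher in males and 286 in females.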

Additional observations from a re-analysis of the deposited data

Results flagged for a closer look

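In 13 of 226 groups of 4 arrays, each group being a named gene in one sex, the highest or lowest array stood apart from the others by Dixon's test at the 95% level. Chance alone gives about 1 in 20 such groups. Among females, mutant female 1 was apart for Cyp2e1 (14.07, the others 13.06 to 13.20), Gsta4 (11.56, the others 10.37 to 10.57) and Akr1c14 (5.68, the others 6.37 to 6.44). Wildtype female 3 was apart for Cldn1 (9.16, the others 9.76 to 9.87) and Stra6 (7.29, the others 6.49 to 6.54), and wildtype female 1 for Acot10 (10.11, the others 10.38 to 10.39). Among males, mutant male 2 was apart for Acaa2 (11.70, the others 12.11 to 12.19), Fbp2 (10.31, the others 9.78 to 9.87) and Ldhd (12.92, the others 12.57 to 12.58). Mutant male 4 was apart for Decr2 (9.36, the others 8.87 to 8.93) and Scnn1b (11.46, the others 10.82 to 10.87), wildtype male 2 for Casr (7.07, the others 7.53 to 7.57) and wildtype male 4 for Slc7a8 (10.29, the others 10.88 to 10.95). All values are normalized log2 intensities. The 11 of these genes that were called for sex kept females and males without overlap. This follows largely from the call and is no added support. Of the 423 called genes 418 did not overlap, against 13.9% of all autosomal genes.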

How the results depend on the processing

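All 423 called genes kept their sign under every setting tried, each of which used the same arrays or all but 1 of them. Of these genes, 140 passed the threshold in each of the 8 fits that left out 1 array and 133 under every setting that tested them. Leaving out 1 array gave 73 to 324 genes higher in males and 84 to 286 higher in females, lowest for both without wildtype female 1 and highest for both without mutant male 2, with 0 interactions throughout. From the authors' processed values 402 genes were higher in females and 251 in males. The other settings gave 146 (median scaling) to 252 (no background correction) genes higher in males and 226 (no detection filter) to 362 (no background correction) higher in females, and the random replicate block gave 183 and 286, among them all 168 and 255 called without it. Of the 97 named called genes 96 passed with no background correction, 93 with median scaling, 95 with the authors' values, 84 with no detection filter and 58 without wildtype female 1. Of these 97, Car14, Insr and Pck1 passed in none of the fits that left out 1 array, and 40 lost their call in at least 1: Abcb1b, Abcc4, Acot10, Acot12, Acot3, Acot7, Acss1, Akr1c12, Akr1c19, Alpl, Ces2g, Cycs, Cyp2c23, Cyp2d26, Cyp4a12a, Cyp4a12b, Ddc, Decr2, Elovl6, Fads1, Fbp2, Gpt, Gsta4, Gstm7, Hsd11b1, Mme, Selenop, Serpina1f, Slc13a3, Slc16a4, Slc22a17, Slc22a28, Slc22a30, Slc22a8, Slc5a12, Slc5a9, Slc7a13, Slc7a8, Stra6 and Tmigd1. Among these 40, Cycs, Decr2, Fads1, Gpt, Slc13a3, Slc22a17, Slc22a8 and Slc7a13 passed in only 1 of the 8 fits. List medians close to 0 changed sign: hydroxysteroid dehydrogenases stood at 0.03 and at -0.02 with median scaling, and the medians of the polyamine, fatty acid oxidation, aldehyde and alcohol dehydrogenase, kallikrein and Slco and Slc47 transporter lists crossed 0 when an array, the filter or the probe rule changed. The median over all autosomal genes moved between -0.06 and -0.01 under the 3 other scalings. Levels near the detection limit, as for the undetected sex of Cyp2j13 or Ugt1a1, allow only a bound on the fold. The causes of these shifts were not tested.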

Other observations

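Some genes had differences as wide as the called ones without passing, and their arrays within a sex split into high and low. These genes were picked after their values were seen. H2-Aa, a chain of the class II antigen-presenting molecule, read 4.69 and 4.79 in the mutant females, 4.63 and 9.94 in the wildtype females, 11.27 and 11.59 in the mutant males and 10.95 and 6.17 in the wildtype males. Wildtype female 3 was high among the females and wildtype male 4 low among the males, and the difference was 3.98 (SE 1.59, adjusted p = 0.219). Azgp1, a secreted lipid-mobilising glycoprotein, read 12.08 and 4.43 (mutant) and 4.79 and 4.52 (wildtype) in females, and 4.51 and 11.43 (mutant) and 12.35 and 13.32 (wildtype) in males, high in 1 female and in 3 males, with a difference of 3.94 (SE 2.36, adjusted p = 0.399). Fcer1g, the common gamma chain of Fc receptors, read 9.09 and 4.37 in wildtype females, 10.37 and 8.75 in mutant females, 4.37 and 4.42 in wildtype males and 4.35 and 4.56 in mutant males, above the detection limit in 3 females and in no male, with a difference of -3.72 (SE 1.01, adjusted p = 0.0973). Fgfr1op2 read 6.99 and 7.48 in the mutant females, 7.00 and 11.13 in the wildtype females, 11.54 and 11.72 in the mutant males and 11.52 and 7.41 in the wildtype males, and its 4 high arrays included the same wildtype female 3 that was high for H2-Aa.

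Called genes outside the nephron and metabolic lists, also chosen after their values were seen, included secreted proteins and a thyroid hormone enzyme. Cpn1, a subunit of the plasma carboxypeptidase N, was higher in females at -3.18 (SE 0.26, adjusted p = 0.000968), and the coagulation factor gene F5 at -1.90 (SE 0.14, adjusted p = 0.000495). Igf2, the fetal growth factor, was higher in females at -2.64 (SE 0.54, adjusted p = 0.0428). Dio1, the deiodinase that activates thyroid hormone, was higher in females at -2.13 (SE 0.28, adjusted p = 0.00716), and Bbox1, the last enzyme of carnitine synthesis, at -2.53 (SE 0.35, adjusted p = 0.00987). Higher in males were Serpinf2, the plasma inhibitor of plasmin, at 2.07 (SE 0.19, adjusted p = 0.00155), the uridine phosphorylase Upp2 at 2.30 (SE 0.19, adjusted p = 0.000968) and Timd2, a ferritin receptor, at 2.12 (SE 0.26, adjusted p = 0.00531).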
